A study of Mus musculus with 8 samples.

Results

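The genes described here are 9 complement components and receptors: C1qa, C1qb and C1qc, C3, C4b, Cfb and Cfp, and the receptors C3ar1 and C5ar1. The rule takes them by symbol and reads no measured value, and all 9 were found among the 27923 genes of the tables. They were measured by Seq-Well, in which the mRNA of single cells in microwells is captured on barcoded beads and counted by unique molecular identifiers (UMIs), in 2 lung tumors of KP mice, 1 tumor from each of 2 mice. The mice were chimeras made from KP embryonic stem cells of the C57BL/6 background, whose conditional alleles include p53 fl/fl, and were 12 weeks old when Cre was delivered into the trachea by an adenovirus whose SPC promoter restricts it to alveolar type II cells, and the tumors were taken 16 weeks later. In each tumor, 1 library held cells of the photoactivated Healthy/Tumor Border, sorted for the uncaged dye calcein NVOC and for calcein violet, and 3 libraries were technical arrays of the Whole Tumor, which was not photoactivated. The border is thus known from a single library per tumor, every library carries the same alleles and Cre, and no tumor-free lung was measured.

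Complement is a cascade of plasma proteins. C1q, built of the chains encoded by C1qa, C1qb and C1qc, recognises antibody and dying cells and starts the classical pathway, in which C4b, the mouse C4 gene, is cleaved. All pathways meet at C3, and the alternative pathway adds factor B (Cfb) and properdin (Cfp), which stabilises the C3-cleaving enzyme. The fragments C3a and C5a signal to myeloid cells through C3ar1 and C5ar1. Most plasma complement is made in the liver, whereas C1q is made mainly by macrophages and other myeloid cells.

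The 3 C1q genes lie side by side on the minus strand of chromosome 4 (GRCm38, GENCODE vM21), within 18675 bases. C1qb spans chr4:136880129-136886187, C1qc chr4:136889804-136893065 and C1qa chr4:136895917-136898803. The other members are on the minus strand as well. C3 is at chr17:57203970-57228136, C4b at chr17:34728380-34743882, Cfb at chr17:34856374-34862518, C3ar1 at chr6:122847138-122856161, C5ar1 at chr7:16246743-16259540 and Cfp at chrX:20925454-20931555. Each interval is the whole annotated gene, exons and introns. Cfb overlaps the protein-coding model Gm20547 on the same strand, and C4b has the near-identical copy C4a, so that reads of these genes may have been split or lost and their levels are uncertain.

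The promoters of C1qb and C1qc, whose UMIs lay in the same cells, and of C3, whose UMIs lay mostly elsewhere, are shown so that a shared and a separate pattern can be set beside sequence. Each runs from 250 bases before to 50 after the RefSeq start (GRCm38.p6), 5′ to 3′ on the minus strand: C1qb at chr4:136886151-136886450, C1qc at chr4:136892865-136893164 and C3 at chr17:57228087-57228386. Capitals mark matches, on either strand, to 4 motifs: the PU.1 core GAGGAA, the MAF half-site TGCTGA, the AP-1 site TGACTCA and the C/EBP core TTGCNNAA.
C1qb: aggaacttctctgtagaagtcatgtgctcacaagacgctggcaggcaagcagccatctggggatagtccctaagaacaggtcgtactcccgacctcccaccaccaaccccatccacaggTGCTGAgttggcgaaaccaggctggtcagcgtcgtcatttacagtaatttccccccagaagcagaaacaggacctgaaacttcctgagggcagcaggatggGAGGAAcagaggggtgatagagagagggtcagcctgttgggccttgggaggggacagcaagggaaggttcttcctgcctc
C1qc: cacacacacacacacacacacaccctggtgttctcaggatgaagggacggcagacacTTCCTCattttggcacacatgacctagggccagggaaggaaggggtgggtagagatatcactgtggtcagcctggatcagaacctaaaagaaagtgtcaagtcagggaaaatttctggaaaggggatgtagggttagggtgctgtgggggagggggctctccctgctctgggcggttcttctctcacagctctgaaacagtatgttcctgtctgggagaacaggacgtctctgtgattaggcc
C3: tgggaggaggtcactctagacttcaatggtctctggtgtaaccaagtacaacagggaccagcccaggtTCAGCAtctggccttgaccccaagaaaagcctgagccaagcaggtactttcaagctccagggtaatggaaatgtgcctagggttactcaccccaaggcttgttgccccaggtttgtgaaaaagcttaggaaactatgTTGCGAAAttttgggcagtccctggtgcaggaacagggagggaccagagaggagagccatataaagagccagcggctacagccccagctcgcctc

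In the C1qb promoter, the capitals are a MAF half-site at bases 120 to 125 and a PU.1 core at bases 221 to 226, with no base in 2 motifs. The C1qc window held 1 match, a PU.1 core read on the other strand at bases 58 to 63, and the C3 window a MAF half-site on the other strand at bases 69 to 74 and a C/EBP core at bases 206 to 213. Short motifs are common: of 32851 promoters of this length, 28.28% held GAGGAA, 19.48% TGCTGA, 10.8% TTGCNNAA and 5.202% TGACTCA. A match is a description of letters, and no binding was measured. The C1qc start used here lies inside the GENCODE transcript, where the last 20 bases of the window were found at transcript base 181, so that the window is not the region before the longest transcript. Promoters were found for 6 of the 9 members.

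The 8 libraries held 4343 barcodes, of which 3894 with at least 200 genes were kept, with 374369 to 2019162 UMIs and a median of 675.5 to 2525.5 UMIs per barcode and library; the lowest of both was the second Whole Tumor array of Tumor 2. A barcode was given to the lineage with the most distinct markers among 8 lists of 10, at least 2 and more than in any other list, and no member served as a marker. This gate took 2955 barcodes, among them 637 macrophages or monocytes, 1607 neutrophils, 230 epithelial cells, 172 B cells, 138 T or NK cells, 72 dendritic cells, 55 endothelial cells and 44 fibroblasts. The neutrophil gate rests on Csf3r, S100a8, S100a9, G0s2 and 6 more genes, all 10 found in at least 10% of its barcodes. The cell names inside all 8 tables carry the number of the other tumor than the sample labels; the labels were followed, since the barcodes of each tumor and region under them number as the study's methods state. The barcode sequences held by more than 1 library were 10, and leaving them out lost none of the member calls; 1 was gained, Cfp between macrophages and neutrophils (adjusted p = 0.0489). Levels are given as CPM, the UMIs of the gene over all UMIs of the gate, multiplied by 1e+06, with 95% exact Poisson intervals in the plots, and as the share of barcodes with at least 1 UMI; intervals and limits cover counting error only. Reads come from the 3′ ends of transcripts, so levels are compared between classes and libraries for 1 gene, not between genes.

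The members fell into separate classes. The macrophage gate held 98.6% of the 2285 C1qa UMIs, 98.4% of the 2886 C1qb UMIs and 98.7% of the 1574 C1qc UMIs. The gate also held 88.3% of the 2079 C4b UMIs, 89.4% of the 991 C3ar1 UMIs and 71.8% of the 1719 Cfp UMIs. The neutrophil gate held most of the other genes' UMIs, 59.3% of the 4579 C3 UMIs and 57.9% of the 1244 C5ar1 UMIs, where the macrophage gate held 19.2% and 37.4%; barcodes in no gate held 8.17% of C3. For C3 this differed by tumor, with 71.0% of its 3139 UMIs in neutrophils in Tumor 1 and, of 1440 in Tumor 2, 36.9% in macrophages, 33.6% in neutrophils and 25.2% in fibroblasts. Only 40 Cfb UMIs were counted in all, 31 of them in macrophages, and Cfb passed the filter on low counts in none of the comparisons. Its level in macrophages was 0 to 19.6 CPM over the libraries, with 22.5 CPM in the alveolar and 22.4 CPM in the Prg4 kind and no UMI in the Cx3cr1 Ms4a7 kind, and 5 further UMIs lay in epithelial barcodes.

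**Figure D1:**
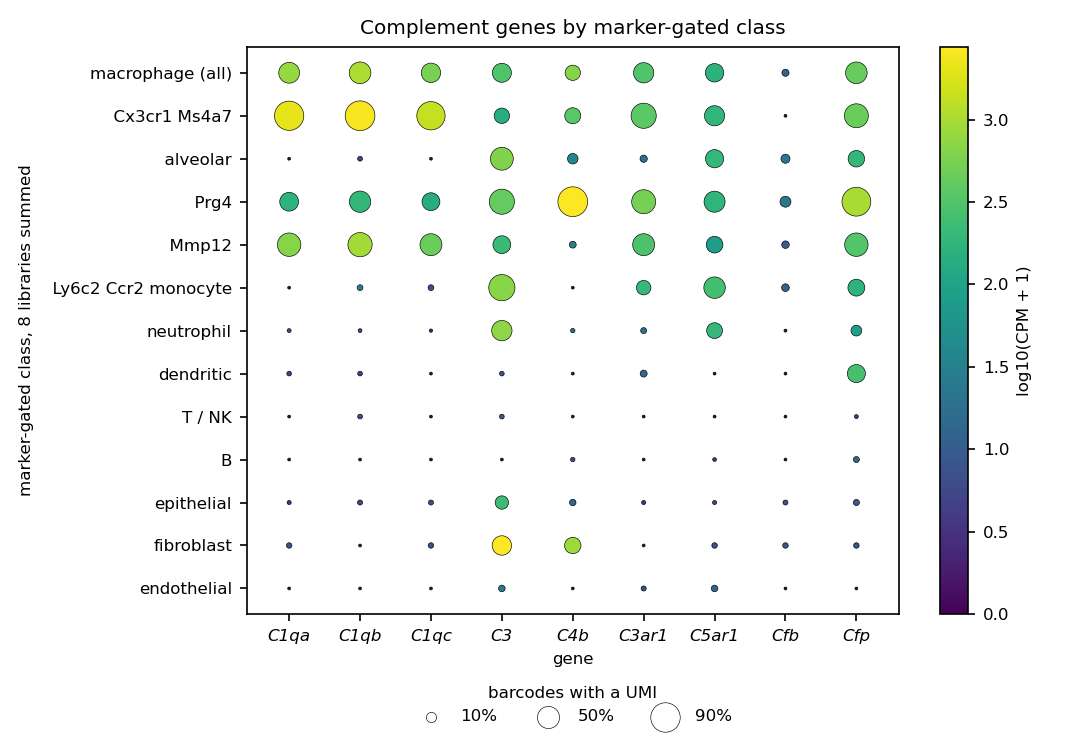
Level and detection of the 9 genes in each marker-gated class, all 8 libraries summed; dot colour is log10(CPM + 1), dot area grows with the share of barcodes with a UMI, and the 5 classes listed with the macrophage gate are kinds within it. C1qa, C1qb and C1qc are bright in macrophages of the Cx3cr1 Ms4a7 kind (2020.1, 2483 and 1388 CPM), C4b in those of the Prg4 kind (2751 CPM) and in fibroblasts (840.3 CPM), and C3 in fibroblasts (2604 CPM), neutrophils (724 CPM) and several macrophage kinds.

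Few UMIs of the C1q genes lay outside the macrophage gate. C1qb was found in 48.4% of macrophage barcodes, in 0.622% of neutrophil barcodes and in 0 of 172 B cell barcodes. For the B cells a limit of 3 barcodes, which is not an exact interval, corresponds to a share of 1.74% with a UMI. It sets no limit on cells that express the gene. The median barcode held 3379, 2069 and 1854 UMIs in these classes. Any chain was found in 1.24% of neutrophil barcodes over all libraries and in 3.74% of the 107 at the Tumor 2 border. After thinning each barcode to 500 UMIs, C1qa, C1qb and C1qc were found in 22.3%, 25.7% and 16.9% of macrophage barcodes, against 44.4%, 48.4% and 38.6% unthinned. In counts summed over the libraries, the ratio of macrophages to neutrophils was 174 for C1qa (interval 109 to 299.9), 219.8 for C1qb (137 to 378) and 511 for C1qc (199 to 1877).

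Lineages were compared with edgeR's quasi-likelihood test on UMIs summed per tumor and gate, with tumor as a term, 16 sums and 7 residual degrees of freedom, and Benjamini-Hochberg adjustment over all genes tested. Between macrophages and neutrophils, 12.3% of 5669 genes were called at an adjusted p under 0.05, 359 higher and 339 lower. Of the 9 members, 8 were tested and 5 were called, all higher in macrophages. C1qa, C1qb and C1qc, with 17, 17 and 4 UMIs in neutrophils, passed the filter on low counts through their macrophage sums. For these genes only a call higher in macrophages was open, so their calls repeat the counts above. On the log2 scale, C1qa was higher by 6.08 (SE 0.69, adjusted p = 0.000212), C1qb by 6.39 (SE 0.74, adjusted p = 0.000212) and C1qc by 7.52 (SE 0.86, adjusted p = 0.000256). C3ar1 was higher by 4.25 (adjusted p = 0.00133) and C4b by 5.14 (adjusted p = 0.0177), the latter not called without the Tumor 2 border library (4.97, adjusted p = 0.0559). DESeq2 did not call C1qb (adjusted p = 0.138), C1qc (adjusted p = 0.403) or C4b (adjusted p = 0.196), with C1qa and C3ar1 called. Cfp differed by 1.96 (adjusted p = 0.0601) and was called in 8 of 16 alternatives. C3 and C5ar1 were lower by point estimate, at -1.34 (SE 0.76, adjusted p = 0.278) and -0.68 (SE 0.63, adjusted p = 0.53). With library totals in place of TMM factors the median change of all genes shifted to 0.29 and the split to 514 higher and 203 lower, with the same 5 members called and Cfp besides (adjusted p = 0.0164).

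C1q was uneven among macrophages. Of the 637 barcodes, 351 held a UMI of any chain and 207 held all 3, in a gate whose lineage markers are shared by every kind. Within it, barcodes were resolved by 5 lists of 6 markers into 142 of a Cx3cr1 Ms4a7 kind, 99 of an Mmp12 kind, 86 of a Prg4 kind, 65 of an alveolar kind and 38 of a Ly6c2 Ccr2 monocyte kind, and 207 were not resolved. Any chain was found in 135 of the 142 Cx3cr1 Ms4a7 barcodes, and all 3 chains in 112 of them. Any chain was found in 68 of the 99 Mmp12 and 52 of the 86 Prg4 barcodes. By contrast, the alveolar kind held 0 UMIs of C1qa, 1 of C1qb and 0 of C1qc in 65 barcodes with a median of 2978 UMIs. The monocyte kind held 0, 5 and 1 UMIs, all of C1qb in a single barcode.

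In Tumor 2, where 64 of the alveolar and 36 of the monocyte barcodes lay, C1qa stood at 2254 CPM in the Cx3cr1 Ms4a7 kind and was at least 198-fold higher than in the alveolar kind, the limit being 3 counts over that kind. C1qc was at least 136-fold higher by the same limit. C1qb, with 1 UMI in the alveolar kind, gave a ratio of counts of 732 (interval 131 to 28943), an estimate on that UMI and not a bound like the others. Against monocytes of Tumor 2 the bounds were at least 129-fold, 159-fold and 88.4-fold. The Tumor 2 border held 1177 of the 1492 C1qa UMIs of the Cx3cr1 Ms4a7 kind. In the arrays alone C1qa stood at 1414 CPM, and the bounds were at least 111-fold for C1qa and 79.9-fold for C1qc against the alveolar kind, with a C1qb ratio of 436 (77.8 to 17269), and at least 77-fold, 100.4-fold and 55.2-fold against monocytes.

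The order of the Cx3cr1 Ms4a7 and Mmp12 kinds differed between the tumors. In Tumor 2, the Cx3cr1 Ms4a7 level was 3.15 times (2.78 to 3.57) that of Mmp12 macrophages for C1qa, 2.69 times (2.42 to 2.995) for C1qb and 3.12 times (2.69 to 3.63) for C1qc. In the arrays of Tumor 2 alone these ratios were 4.06, 3.503 and 4.12. In Tumor 1 the Mmp12 kind was higher, at 460.3, 581 and 299 CPM of C1qa, C1qb and C1qc against 290.5, 290.5 and 189.9 CPM in the Cx3cr1 Ms4a7 kind. The ratio there was 0.631 (0.381 to 1.02) for C1qa, 0.4997 (0.306 to 0.792) for C1qb and 0.636 (0.336 to 1.16) for C1qc, from 16 and 26 barcodes, so that only the interval of C1qb excludes equal levels; the difference between the tumors was not tested.

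The kinds were fitted on 7 sums with 1 residual degree of freedom, so that their p-values rest on the spread shared across genes and on 2 mice. Against the alveolar kind, 7.35% of 6133 genes were called and 6 of the 9 members, 5 of them higher in the Cx3cr1 Ms4a7 kind. These were C1qa (adjusted p = 1.66e-18, up to 0.00119 over the alternatives), C1qb, C1qc, C3ar1 (4.05 on the log2 scale, SE 0.74, adjusted p = 2.86e-06) and C4b (3.36, SE 0.70, adjusted p = 8.22e-05). C4b was not called without the Tumor 2 border library (0.83, adjusted p = 0.819). C3 was lower in the Cx3cr1 Ms4a7 kind, at -2.02 (SE 0.56, adjusted p = 0.00659), and was not called by DESeq2 (adjusted p = 0.372), without the Tumor 1 border (-1.84, adjusted p = 0.135) or without the Tumor 2 border (-0.84, adjusted p = 0.718). Against monocytes, 4.68% of genes were called and 5 of the 9 members, with C1qa, C1qb, C1qc and C4b higher and C3 lower, at -2.33 (SE 0.56, adjusted p = 0.00211). C3 was not called in 4 of 14 alternatives, by DESeq2 and without the Tumor 1 border, the Tumor 2 border (-1.11, adjusted p = 0.676) or array 3 of Tumor 2. C3ar1 against monocytes stood at 0.50 (SE 0.56, adjusted p = 0.741). The C1q genes, with few or no UMIs in the alveolar and monocyte kinds, passed the filter on low counts through other kinds. Only a call higher in the Cx3cr1 Ms4a7 kind was open to them. The same held for C4b against monocytes, with 0 UMIs in that kind, and for C3ar1 against the alveolar kind, with 5. Kind and tumor partly cannot be told apart here, since the alveolar and monocyte kinds were nearly all of Tumor 2 and the Prg4 kind nearly all of Tumor 1, and the 3 kind comparisons share the same Cx3cr1 Ms4a7 sums.

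C4b had its own place. In Prg4 macrophages it was found in 91.9% of barcodes, at 3264, 2304 and 3001 CPM in the 3 Whole Tumor arrays of Tumor 1, which held 84 of the 86 barcodes of this kind; neither border library held any. In the same tumor, the Cx3cr1 Ms4a7 level of C4b was 0.110 of the Prg4 level (0.0721 to 0.161), from 16 barcodes. Against the Prg4 kind, 2.32% of genes were called and C4b alone of the 9 members, at -3.39 for the Cx3cr1 Ms4a7 kind (SE 0.59, adjusted p = 3.68e-06, up to 0.0374 over the alternatives). The C1q genes were higher in the Cx3cr1 Ms4a7 kind by 1.25 to 1.53, with adjusted p from 0.282 to 0.532. Cfp stood at 992, 1042 and 902 CPM in the same arrays of the Prg4 kind, where 86.0% of barcodes held it, against 455 CPM in the Cx3cr1 Ms4a7 kind (-1.38, adjusted p = 0.237). C3ar1 was found in 59.3% of Prg4 and 65.5% of Cx3cr1 Ms4a7 barcodes and in 4.62% of alveolar ones. C5ar1 ranged from 78.4 CPM in Mmp12 to 257 CPM in monocyte barcodes, and none of the kind comparisons called it. With all libraries pooled, C3 ran in another order than C1q, with 673 CPM in monocyte, 609 in alveolar, 415 in Prg4, 213 in Mmp12 and 136 in Cx3cr1 Ms4a7 barcodes, and was found in 71.1% of monocyte against 23.9% of Cx3cr1 Ms4a7 barcodes. Of these, 34 of the 99 Mmp12 and 77 of the 142 Cx3cr1 Ms4a7 barcodes came from the Tumor 2 border, where C3 was 96.6 and 45.5 CPM in these kinds. In the arrays of Tumor 2 alone it was 686 CPM in monocyte, 596 in alveolar, 353 in Mmp12 and 283 in Cx3cr1 Ms4a7 barcodes, with the counting intervals of the first 2 overlapping each other, as did those of the last 2.

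**Figure D2:**
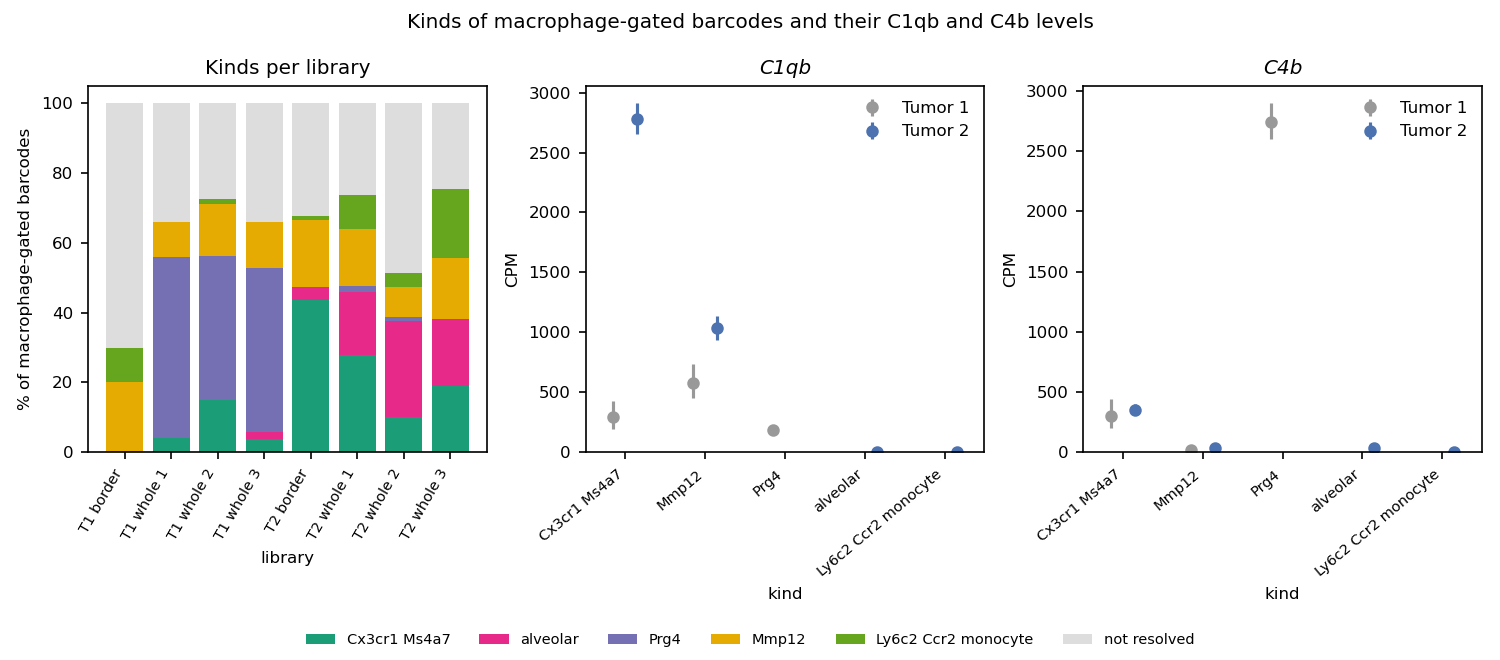
Left, the kinds as stacked percentages of the macrophage-gated barcodes of each library (T1, Tumor 1; T2, Tumor 2). Middle and right, C1qb and C4b in CPM by kind and tumor, with 95% Poisson intervals, for kinds with at least 10 barcodes in the tumor; C1qb was 2779.7 CPM in Cx3cr1 Ms4a7 macrophages of Tumor 2 and 290.5 in those of Tumor 1, and C4b was 2745 CPM in Prg4 macrophages of Tumor 1.

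At the Healthy/Tumor Border of Tumor 2, macrophages held more C1q than in any Whole Tumor array of that tumor. C1qa stood at 1851 CPM at this border and at 600.1, 617 and 369.7 CPM in the arrays. C1qb stood at 2336 CPM against 904, 338 and 529 CPM. C1qc was at 1254 CPM against 503, 312 and 257 CPM. The border thus lay above all arrays for each chain, 3.5, 3.96 and 3.51 times their mean; 30.5% of the 6040 genes tested lay above all arrays there and 21.6% below. Any chain was found in 78.0% of the 177 border barcodes and in 50.8%, 43.8% and 40.5% of those of the arrays.

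C4b and Cfp were higher at this border too, and C3 lower. C4b stood at 287 CPM against 48.7, 84.5 and 38.0 CPM, from 19.2% of the border barcodes. Cfp, properdin, stood at 468 CPM against 211, 234 and 224 CPM. C3 was at 91.2 CPM against 555, 201 and 434 CPM, below all arrays. C3ar1 was at 312 CPM and C5ar1 at 125 CPM, against means of 200.3 ± 21.1 and 166 ± 24.8 CPM (SD, n = 3 arrays). Here and below, groups of libraries were fitted with 1 mean per tumor and region over 8 sums and 4 residual degrees of freedom, by edgeR's quasi-likelihood test. In this border comparison 2.45% of 6040 genes were called, and 6 of the 9 members. The log2 change was 1.78 for C1qa (SE 0.30, adjusted p = 0.00078), 1.92 for C1qb (SE 0.29, adjusted p = 0.000336) and 1.78 for C1qc (SE 0.27, adjusted p = 0.000341). It was 2.45 for C4b (SE 0.39, adjusted p = 0.000585), 1.01 for Cfp (SE 0.25, adjusted p = 0.0315) and -2.21 for C3 (SE 0.39, adjusted p = 0.00173). C3ar1, at 0.56 (adjusted p = 0.377), and C5ar1, at -0.48 (adjusted p = 0.571), were not called. The median over the 8 members tested was 1.39 and over all genes 0.00282. Cfp was not called without array 1 or array 3 of Tumor 2 or by DESeq2 (adjusted p up to 0.267), while the other 5 were called in all 15 alternatives. The spread comes from the technical arrays of both tumors, 1 mouse each, and the border is 1 library. These p-values thus measure only the spread between arrays.

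The kinds moved with this comparison. The Cx3cr1 Ms4a7 kind was 43.5% of the border macrophages and 27.9%, 10.0% and 19.0% of those of the arrays, while the alveolar kind was 3.95% against 18.0%, 27.5% and 19.0%; the part of this mix in the result was not tested. Within the Cx3cr1 Ms4a7 kind the level of C1qb was 3254 CPM at the border, from 77 barcodes, and 1982, 846 and 1914 CPM in the arrays, from 17, 8 and 24 barcodes. C1qa in this kind was 2680.3 CPM against 1422, 1481 and 1399.8 CPM, and C1qc was 1822 CPM against 1235, 1005 and 901 CPM. In the Mmp12 kind C1qb was 1514 CPM at the border and 1097, 298 and 384 CPM in the arrays. The border was therefore above each array within both kinds, by smaller factors than over the whole gate. Against the mean of the 2 arrays with at least 10 barcodes of the kind, they were 1.9, 1.67 and 1.71 for C1qa, C1qb and C1qc in the Cx3cr1 Ms4a7 kind and 2.36, 2.04 and 2.21 in the Mmp12 kind; no test was run within kinds. C4b in the Cx3cr1 Ms4a7 kind was 494 CPM at the border, in 27 of 77 barcodes, and 14.4, 0 and 112 CPM in the arrays. C3 in this kind was 45.5 CPM at the border and 244, 52.9 and 335 CPM in the arrays. The neutrophil markers summed to 6.41 per 10000 UMIs in these border macrophages and to 3.69, 4.03 and 4.91 in the arrays, with 1 of the 10 at 0 at the border. The fibroblast markers summed to 0.257 (3 at 0) against 0.0811, 0 and 0.183 (8, 10 and 3 at 0), and the T and NK markers to 2.21 (1 at 0) against 2.03, 1.62 and 2.11 (5, 9 and 6 at 0). Below the arrays were the epithelial markers at 0.503 (4 at 0) against 0.52 to 1.22 (2 to 7 at 0) and the endothelial markers at 0.503 (3 at 0) against 0.852 to 1.01 (3 to 8 at 0). The part of these lists in the result was not tested.

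The border of Tumor 1 gave 10 macrophage barcodes with 19307 UMIs, in which 3 counts correspond to 155 CPM. C1qa was at 155 CPM (3 UMIs), C1qb at 51.8 CPM (1 UMI) and C1qc at 104 CPM (2 UMIs), all in 1 barcode. C4b, C5ar1 and Cfp had no UMI there, and C3 had 21 UMIs, 1088 CPM. In these barcodes the neutrophil markers summed to 33.1 per 10000 UMIs, against 3.69 to 8.95 in the macrophages of the other 7 libraries, and 5 of the 10 neutrophil markers were at 0. No comparison of this library's macrophages was tested; 24.6% of the genes tested in the gate lay on opposite sides of the arrays at the borders of the tumors.

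**Figure D3:**
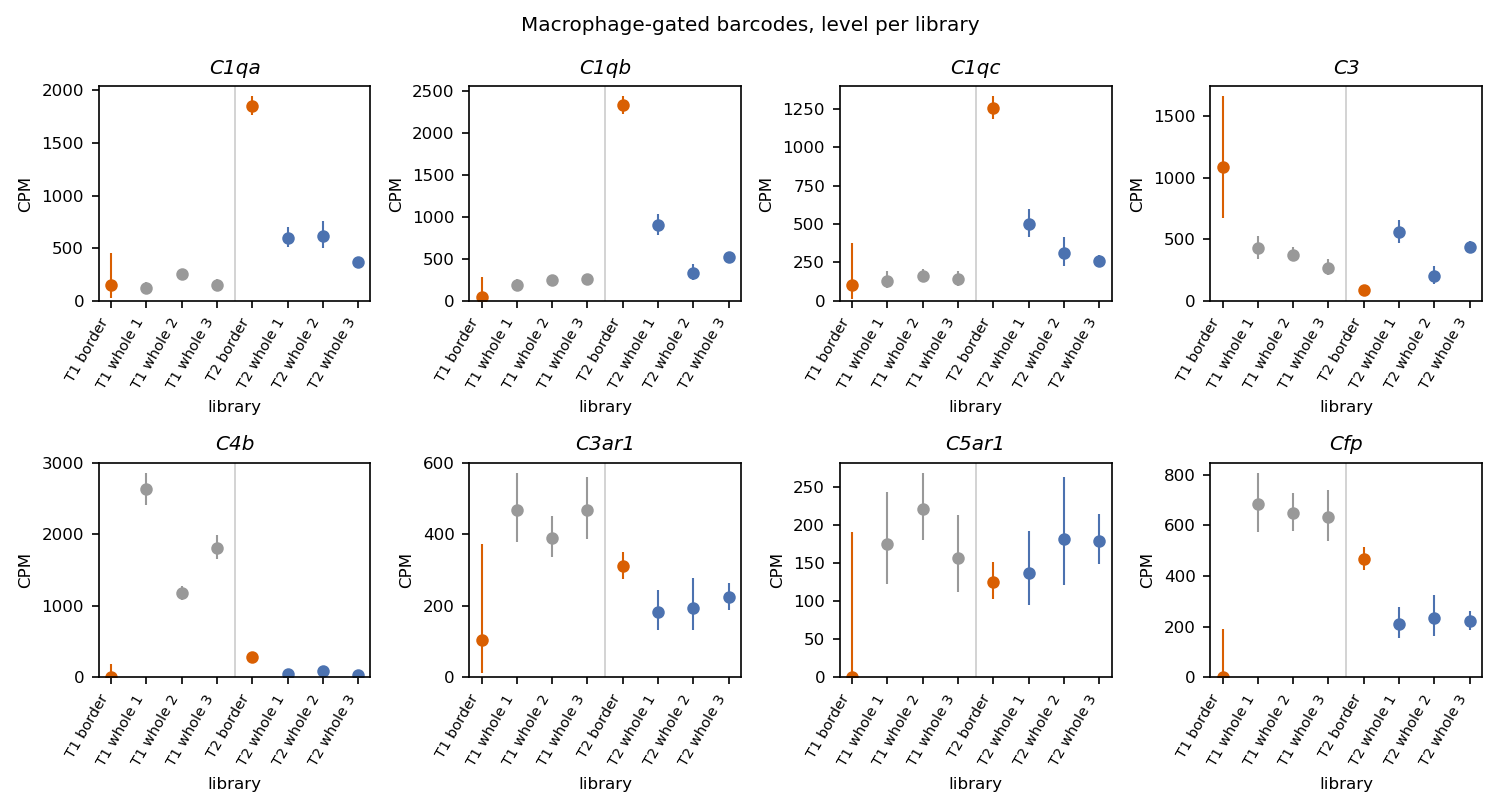
Level of 8 of the genes in macrophage-gated barcodes of each library in CPM, with 95% Poisson intervals; orange, Healthy/Tumor Border; grey and blue, Whole Tumor arrays of Tumor 1 (T1) and Tumor 2 (T2). The C1q genes peak at the Tumor 2 border (1851, 2336 and 1254 CPM), C4b and Cfp in the Tumor 1 arrays (1176 to 2631 and 633 to 685 CPM), and the wide intervals at the Tumor 1 border come from 10 barcodes.

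Between the Whole Tumor arrays, macrophages of Tumor 2 held more C1q and those of Tumor 1 more C4b, Cfp and C3ar1. In Tumor 1 C1qa stood at 122, 257 and 153 CPM, C1qb at 191 to 256 CPM (mean 232 ± 35.9, SD, n = 3 arrays) and C1qc at 132, 163 and 142 CPM. For each chain these values lay below all 3 arrays of Tumor 2. C4b stood at 2631, 1176 and 1817 CPM in Tumor 1, Cfp at 685, 650.1 and 633 CPM and C3ar1, the C3a receptor, at 469.6, 391 and 468 CPM, against 182, 195 and 224 CPM for C3ar1 in Tumor 2. In these 3 genes, as in the 3 of C1q, the arrays of the tumors did not overlap, which held for 36.8% of the genes tested. C3 (426, 376 and 267 CPM in Tumor 1) and C5ar1 (176, 222 and 157 CPM) overlapped.

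In this comparison 20.8% of genes were called, 773 higher in Tumor 2 and 483 lower, and 6 of the 9 members, 3 in each direction. C1qa was higher in Tumor 2 by 1.65 on the log2 scale (SE 0.26, adjusted p = 4.29e-05), C1qb by 1.497 (SE 0.25, adjusted p = 0.000103) and C1qc by 1.41 (SE 0.24, adjusted p = 0.000149). C4b differed by -5.04 (SE 0.33, adjusted p = 3.18e-11), Cfp by -1.39 (SE 0.20, adjusted p = 1.31e-05) and C3ar1 by -0.95 (SE 0.21, adjusted p = 0.00165). C3, at 0.35 (SE 0.25, adjusted p = 0.373), and C5ar1, at -0.01 (SE 0.23, adjusted p = 0.994), were not called. All 6 calls held in the 17 alternatives. With library totals in place of TMM factors the median change of all genes was -0.16 and the split 589 higher and 694 lower. The test compares 2 mice, so that mouse and tumor cannot be told apart. Its p-values set their difference against the spread between technical arrays only. This comparison shares the Tumor 2 arrays with the border comparison above.

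The macrophage markers summed to 66.3, 65.7 and 75.03 per 10000 UMIs in the macrophages of the Tumor 1 arrays and to 133, 159 and 141 in those of Tumor 2, with none of the 10 at 0. The neutrophil markers summed to 8.95, 6.83 and 6.1 per 10000 UMIs in the macrophages of the Tumor 1 arrays, with 1 to 3 of the 10 at 0, and to 3.69, 4.03 and 4.91 in those of Tumor 2, also with 1 to 3 at 0. The dendritic markers summed to 0.217 to 0.342 in Tumor 1, with 6 or 7 of the 10 at 0, and to 6.49, 1.36 and 1.73 in Tumor 2, with 2, 7 and 1 at 0. The B cell markers (0 to 0.326, 5 to 10 at 0, against 0.441 to 0.933, 5 to 7 at 0) and the endothelial markers (0.236 to 0.587, 5 to 8 at 0, against 0.852 to 1.01, 3 to 8 at 0) did not overlap either. The median share of mitochondrial UMIs was 4.36%, 5.51% and 5.19% in Tumor 1 and 8.19%, 8.16% and 6.05% in Tumor 2. The part of these in the result was not tested.

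The kinds differed between these arrays as well. The Prg4 kind was 52.0%, 41.2% and 47.2% of the Tumor 1 macrophages and 1 barcode or none in each Tumor 2 array, where the alveolar kind was 18.0%, 27.5% and 19.0%. Within the Mmp12 kind, summed over the arrays, C1qb was 596 CPM in Tumor 1 and 527 CPM in Tumor 2. Within the Cx3cr1 Ms4a7 kind it was 290.5 CPM in Tumor 1, from 16 barcodes, and 1845 CPM in Tumor 2, from 49. Outside the Prg4 kind C4b in Tumor 1 was lower, 302 CPM in the Cx3cr1 Ms4a7 kind and 16.1 CPM (2 UMIs) in the Mmp12 kind. No test was run within kinds.

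Macrophage barcodes with a C1q UMI were compared with those without. In Tumor 2, the 255 with C1q held 356 CPM of C3ar1 and 142 CPM of C3, and the 189 without held 84.7 and 508 CPM. C4b was 227 against 29.7 CPM and Cfp 395 against 224 CPM. Of the 255, 138 came from the border library; in the arrays alone, the 117 with C1q and the 150 without held 357 and 90.7 CPM of C3ar1, 287 and 542 CPM of C3, 63.4 and 34.2 CPM of C4b, and 275 and 179.7 CPM of Cfp. In Tumor 1, C3 was 365 CPM with C1q and 385 CPM without, C3ar1 421 and 428 CPM, C4b 2029.5 and 912 CPM, and Cfp 756 and 419 CPM. By point estimate C5ar1 went opposite ways, with 123 CPM in barcodes with C1q and 196 CPM in those without in Tumor 2. In Tumor 1 it was 214 and 145 CPM, and the counting intervals (179 to 253 and 106 to 193 CPM) overlapped. Those of Tumor 2 did not. The counting intervals of C3 and C3ar1 did not overlap in Tumor 2, nor in its arrays alone, and overlapped in Tumor 1; the difference between the tumors was not tested. Barcodes with C1q were deeper, with medians of 3841 against 2382 UMIs in Tumor 2 and 5720 against 2433 UMIs in Tumor 1, and a barcode without a UMI may still express the gene.

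C3 in neutrophils was higher at the Tumor 1 border than in its arrays. It stood at 1062 CPM at that border and at 777, 779.5 and 521 CPM in the arrays. In Tumor 2 it stood at 378 CPM at the border and at 474, 349 and 449.7 CPM in the arrays, within their range. C3 was found in 42.4% of all neutrophil barcodes and in 0 of 172 B cell barcodes. At the Tumor 1 border, 240 of 404 neutrophil barcodes held it and the 10 richest held 26.0% of its UMIs.

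C5ar1, the C5a receptor, stood at 185 CPM in neutrophils of the Tumor 1 border against 126, 137 and 149.9 CPM in the arrays. At the Tumor 2 border it stood at 132 CPM against 336, 252 and 314 CPM. It was thus outside the range of the arrays in both tumors, above them in Tumor 1 and below them in Tumor 2. Of the 6320 genes tested in neutrophils, 12.1% lay above all arrays at the Tumor 1 border and 17.2% below all arrays at the Tumor 2 border, and 35.1% lay on opposite sides of the arrays in the tumors.

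**Figure D4:**
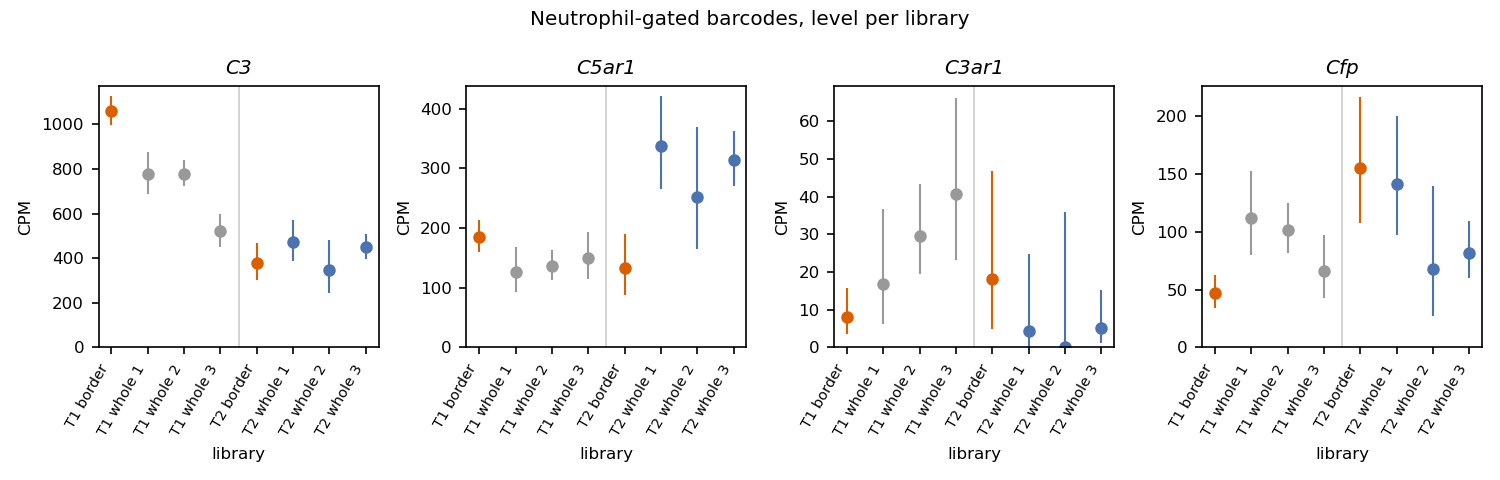
Level of C3, C5ar1, C3ar1 and Cfp in neutrophil-gated barcodes of each library in CPM, scaled to library totals, with 95% Poisson intervals; orange, Healthy/Tumor Border; grey and blue, Whole Tumor arrays of Tumor 1 (T1) and Tumor 2 (T2). C3 is highest at the Tumor 1 border (1062 CPM), and C5ar1 is lower at the Tumor 2 border (132 CPM) than in its arrays (252 to 336 CPM).

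In the neutrophils of Tumor 1, 8.64% of 6320 genes were called between border and arrays, 448 higher and 98 lower, and 3 of the 9 members, of which 6 passed the filter. With TMM factors, C3 was higher by 1.15 (SE 0.25, adjusted p = 0.00135) and C5ar1 by 0.96 (SE 0.28, adjusted p = 0.0221). With library totals alone, the split was 175 higher and 846 lower, the median change of all genes -0.60, and neither was called (C3 0.61, adjusted p = 0.0652; C5ar1 0.42, adjusted p = 0.259). C4b was lower at -4.20 (SE 1.39, adjusted p = 0.05), just past the threshold, on 1 UMI at the border and 32, 9 and 4 UMIs in the arrays, and was called in 9 of 15 alternatives (adjusted p up to 0.419, without array 1 of Tumor 1). C5ar1 was called in 10 of 15 alternatives, and not without array 1 or array 2 of Tumor 1. Without barcodes of under 500 genes, neither C3 (adjusted p = 0.119) nor C5ar1 (adjusted p = 0.111) was called, nor was C5ar1 without the filter on low counts (adjusted p = 0.099).

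In the neutrophils of Tumor 2, 7.83% of genes were called, 179 higher and 316 lower (531 and 164 with library totals), and 1 of the 9 members. C5ar1 was lower at the border by -1.63 (SE 0.37, adjusted p = 0.003), and by -1.21 (adjusted p = 0.0201) with library totals. C3, at -0.61 (SE 0.31, adjusted p = 0.256), was not called. The border effect differed between the tumors for 10% of genes, 170 higher and 465 lower in Tumor 2 minus Tumor 1 (1082 and 175 with library totals), and for 2 of the 9 members. The difference was -2.59 for C5ar1 (SE 0.46, adjusted p = 8.36e-05) and -1.76 for C3 (SE 0.41, adjusted p = 0.00269). With library totals C5ar1 kept its call (-1.64, adjusted p = 0.00884) and C3 did not (-0.81, adjusted p = 0.119), nor was C3 called without barcodes of under 500 genes (adjusted p = 0.151). The macrophage markers summed to 21.5 per 10000 UMIs in neutrophils of the Tumor 1 border and 12.6 in those of the Tumor 2 border, within the range of the arrays (11.7 to 22.4). In neutrophils of the Tumor 1 border the median share of mitochondrial UMIs was 3.35%, against 4.45%, 3.71% and 4.65% in the arrays. The epithelial markers summed to 0.359 per 10000 UMIs there (2 at 0) against 0.501 to 1.15 (2 or 3 at 0), and the fibroblast markers to 0.11 (3 at 0) against 0.127 to 0.253 (4 to 6 at 0). Their part in the C3 and C5ar1 results was not tested.

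Other marker lists moved with the Tumor 2 border. The neutrophil markers themselves summed to 149 per 10000 UMIs in its neutrophils, against 307, 286 and 286 in the arrays, with none at 0; in Tumor 1 they were 100.04 at the border and 95.7 to 110.3 in the arrays. The dendritic markers summed to 2.51 at the Tumor 2 border, with 3 of the 10 at 0, and to 0.194 to 0.531 in its arrays, with 3 to 8 at 0. The T and NK markers summed to 1.64 there (7 at 0) against 0.194 to 0.93, and the epithelial markers to 1.1 (3 at 0) against 0.194 to 0.487. Below the arrays were the fibroblast markers, at 0.0456 (9 at 0) against 0.443, 0.485 and 1.2 (4, 7 and 3 at 0). The part of these lists in the C5ar1 and C3 results was not tested.

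C3ar1 in neutrophils was low, 0 to 40.7 CPM over the libraries, and Cfp 46.9 to 155 CPM. C3ar1 stood at 7.99 CPM at the Tumor 1 border, on 8 UMIs, against 16.8, 29.6 and 40.7 CPM in the arrays, and at 18.2 CPM at the Tumor 2 border, on 4 UMIs, against 4.43, 0 and 5.23 CPM. Cfp stood at 46.9 CPM at the Tumor 1 border against 112, 101 and 66.1 CPM in the arrays, and at 155 CPM at the Tumor 2 border against 142, 67.9 and 81.9 CPM, so that both genes lay below and above all arrays, as did 61.4% and 50.1% of the genes tested. With TMM factors neither gene was called in the neutrophil comparisons, and the border effect on Cfp differed between the tumors by 0.69 (adjusted p = 0.501). With library totals that difference was called (1.65, adjusted p = 0.0361). Cfp was also found in 33.3% of dendritic barcodes, at 262 CPM.

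Fibroblasts and epithelial cells carried C3 and little C1q. The 44 fibroblasts, none from the Tumor 1 border, held 2604 CPM of C3, 8.43 times the macrophage level by counts (7.48 to 9.49). By library C3 was 0, 928 and 0 CPM in the Tumor 1 arrays, from 1, 8 and 5 barcodes. At the Tumor 2 border it was 306 CPM, from 7 barcodes. In the Tumor 2 arrays it was 2089.9, 4807 and 5875 CPM, from 5, 6 and 12 barcodes. Array 1 of Tumor 1 held 364 UMIs in this gate, so that its 0 cannot be placed below the other libraries. A single barcode of array 3 in Tumor 2 held 179 of the 409 UMIs, and without it the level was 1564 CPM. Between fibroblasts and macrophages 12.3% of 5669 genes were called, and 7 of the 9 members. C3 was higher in fibroblasts by 2.62 (SE 0.84, adjusted p = 0.0484), a call held in 10 of 16 alternatives and not without array 2, array 3 or the border of Tumor 2 (adjusted p up to 0.102). C1qa, C1qc, C5ar1 and Cfp, with 1 UMI each in fibroblasts, and C1qb and C3ar1, with none, were lower, of which DESeq2 did not call C1qb and C1qc and C5ar1 was not called without array 2 of Tumor 1 (adjusted p = 0.0531). The members called lower passed the filter on low counts through other gates, so no other call was open to them. By the limit of 3 counts over the gate, C1qb was at least 52.2-fold and C3ar1 at least 16.3-fold higher in macrophages. C4b in fibroblasts was 840.3 CPM, 367 CPM without its richest barcode, and did not pass the test against macrophages (0.04, SE 1.33, adjusted p = 0.997). That value joins tumors in which the levels lay in opposite order. In Tumor 2 C4b was 1366 CPM in the 30 fibroblasts (126 UMIs, 78 of them in the richest barcode) and 154 CPM in macrophages, and in Tumor 1 it was 92.5 CPM in 14 fibroblasts (6 UMIs) and 1643 CPM in macrophages; the difference between the tumors was not tested.

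In epithelial barcodes C3 was 222 CPM, 486 CPM in the 38 of a surfactant kind and 122 CPM in the 169 of a keratin kind. The macrophage markers summed to 66.2 per 10000 UMIs in the surfactant kind and to 1.99 in the keratin kind, against 118 in the macrophage gate; their part in the C3 level was not tested. Against macrophages 15.7% of genes were called, and 7 of the 9 members were lower in epithelial barcodes, 4 of them also by DESeq2. These 7 genes held 2 to 11 UMIs each in epithelial barcodes and passed the filter on low counts through other gates. Only a call lower in epithelial barcodes was thus open to them. C3 was not called (-0.35, SE 0.76, adjusted p = 0.839). In this fit the 7 differences ran from -4.87 for C5ar1 (SE 0.90, adjusted p = 0.00115) to -7.12 for C3ar1 (SE 1.00, adjusted p = 0.000167). Their order is not settled, since C1qa and C3ar1 rest on 2 epithelial UMIs each. By counts, the macrophage level was 344 times the epithelial one for C1qa (95.2 to 2845) and 135 times for C3ar1 (37.4 to 1120). Of the 202 Tumor 1 and 28 Tumor 2 epithelial barcodes, 31 and 10 held a C3 UMI.

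The share of C1qa among the UMIs of the 3 chains in macrophages was 48.7% in array 2 of Tumor 2 (95 of 195 UMIs, exact 95% interval 41.5% to 56.0%). It was 27.5% to 38.3% in the other arrays and 34.0% at the Tumor 2 border (32.7% to 35.4%). Array 2 of Tumor 2 is the library with the lowest depth. The same array gave 44.4% in the Cx3cr1 Ms4a7 and 48.1% in the Mmp12 kind, against 34.3% and 32.3% over all libraries. Array 2 of Tumor 1 gave 41.9% in the Cx3cr1 Ms4a7 kind, on 62 UMIs against 63 in array 2 of Tumor 2. The Tumor 1 border gave 50% in macrophages, on 6 UMIs (11.8% to 88.2%).

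The genes most like each member were sought over 37 sums of a gate and library with at least 10 barcodes, by Pearson's r of log2(CPM + 10). These sums share libraries and mice, and r is a description without a test. Among the genes most like the mean of the C1q genes were Ctsf (r = 0.941), Trem2 (0.921), Lilra5 (0.917) and Ms4a7 (0.916), of which Trem2 and Ms4a7 were markers of the gates. C3ar1 was most like C1qa (0.909), Ccl9 (0.905) and Tfec (0.884). C5ar1 was most like Nfam1 (0.961), Arl11 (0.927) and the neutrophil marker Trem1 (0.918). Cfp was most like Gpr35 (0.906), Alox5ap (0.883) and Csf2rb2 (0.851), and C4b like Epb4.1l3 (0.935), Cacna1d (0.915) and Apol7d (0.914). C3 had the weakest likeness, to Il13ra1 (0.857), Tmem38b (0.840) and Thbs1 (0.835). For Cfb, on 40 UMIs, Lyz1 (0.865), Clec4a1 (0.853) and the alveolar marker Chi3l3 (0.845) came first.

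Other complement genes were taken from a list of 41, of which 40 were in the tables and 28 had at least 10 UMIs. In macrophages of the Tumor 2 border, 3 of the 11 tested rose and none fell, with 2.45% of all genes called. Among them were Fcna, a ficolin of the lectin pathway, which rose by 2.55 (adjusted p = 0.000965), and Itgam, a chain of complement receptor CR3, which rose by 1.24 (adjusted p = 0.0303) and was not called by DESeq2 (adjusted p = 0.124) or without array 1 (0.0959) or array 2 (0.0669) of Tumor 2. Between the Whole Tumor arrays, 7 of the 11 were called, where 20.8% of all genes were. Itgax, a chain of receptor CR4, was higher in Tumor 2 by 2.95 (adjusted p = 8.46e-09), while Fcna (-4.84), C4a (-2.99), Colec12 (-2.98) and Itgam (-2.60) were among the 6 that were lower. Of these 5, C4a lost its call in 6 of 15 alternatives (adjusted p up to 0.131) and the other 4 in none of 17.

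Of the same list, 4 of the 9 tested were called between the Cx3cr1 Ms4a7 and the alveolar kind, where 7.35% of all genes were. Itgam was higher by 3.51, and not called without the Tumor 2 border (adjusted p = 0.0729). Fcna, with no UMI in the alveolar or monocyte kind, was higher and lost its call in 5 of 14 alternatives, and Itgax was lower (-1.60) and lost it in 8. Against monocytes 2 of the 9 were called, with 4.68% of all genes: Fcna and Itgax were higher and lost their calls in 7 and 10 of 14 alternatives. With no UMI in the alveolar and monocyte kinds, Fcna could only be called higher in the Cx3cr1 Ms4a7 kind. Against the Prg4 kind 4 of the 9 were called, with 2.32% of all genes. Fcna was lower (-3.16, adjusted p = 0.00146) and lost its call in 5 of 14 alternatives, Itgax was higher (2.55) and lost it in 8, and Cd93 was lower (-1.71) and lost it in 12.

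In neutrophils of the Tumor 1 border, 1 of the 7 tested was called, with 8.64% of all genes: C5ar2, the second C5a receptor, was lower by -1.51 (adjusted p = 0.0279) and lost its call in 5 of 15 alternatives (adjusted p up to 0.197). At the Tumor 2 border 3 of the 7 were called, with 7.83% of all genes. Cd93 (-1.43) and Itgb2 (-1.15) were lower and Itgax (1.15) was higher, and none of the 3 was called with 500 genes. With library totals Cd93 (adjusted p = 0.0649) and Itgb2 (adjusted p = 0.0869) were not called either, nor was Cd93 by DESeq2 or without array 3 of Tumor 2 (adjusted p = 0.0579). Without the filter on low counts Itgb2 (adjusted p = 0.13) and Itgax (adjusted p = 0.166) were not called. The border effect differed between the tumors for 2 of the 7, with 10% of all genes. These were Cd93 (-2.66), not called by DESeq2 (adjusted p = 0.211), and Itgb2 (-1.42), not called in 3 of 14 alternatives, among them library totals (-0.48, adjusted p = 0.365).

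Between macrophages and neutrophils 2 of the 15 tested were called, with 12.3% of all genes, 1 of them Colec12, higher in macrophages (30.9 against 0 CPM) and not called by DESeq2 (adjusted p = 0.119). With no UMI in neutrophils, Colec12 could only be called higher in macrophages. Between fibroblasts and macrophages 8 of the 15 were called, with 12.3% of all genes. Fibroblasts exceeded macrophages in C7 (1178 CPM against 0), Serping1, the C1 inhibitor (942 against 1.05 CPM), the protease C1s (293 against 1.05 CPM) and the regulator Clu (356 against 3.86 CPM), of which DESeq2 did not call C7 and Serping1. They were lower in Itgax, Cd93, Itgam and Itgb2. C7 and Serping1 passed the filter on low counts through the fibroblast sums, and these receptor genes through other gates. The direction of their calls was thus fixed beforehand, as was that of C1s and Clu, at 1.05 and 3.86 CPM in macrophages. Between epithelial cells and macrophages 9 of the 15 were called, with 15.7% of all genes. Epithelial cells exceeded macrophages in Clu (7379 CPM), Hc, which encodes C5 (197 CPM), Cd55 (29.8 CPM) and C1s (16.1 CPM), the last losing its call in 5 of 16 alternatives. They were lower in Itgam, Itgb2, Cd93 and Itgax, among others. These 4 receptor genes, at 8.03 to 14.9 CPM in epithelial cells, passed the filter on low counts through other gates. Only a call lower in epithelial cells was open to them. Clu, Cd55 and C1s, at 3.86, 1.05 and 1.05 CPM in macrophages, could only be called higher in epithelial cells. Hc, at 6.37 CPM or less in the other gates, passed the filter on low counts through the epithelial sums. For Hc only a call higher in epithelial cells was open.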

How the data were processed

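Seq-Well libraries of 2 KP lung tumors, 1 Healthy/Tumor Border array and 3 Whole Tumor arrays each, were grouped by their labels. The authors deposited raw UMI counts of 27923 genes per cell barcode, made by demultiplexing with bcl2fastq 2.17.1.14, aligning with STAR 2.5.2b to mm10 and collapsing UMIs by the Drop-seq protocol. The annotation and the strand setting are not given in the sources used here. No count was normalized before deposit.

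Barcodes with at least 200 genes were kept and gated by markers, as described above. UMIs were summed per gate and library, or per gate and tumor, for gates with at least 10 barcodes. Sums were compared by the quasi-likelihood test of edgeR 4.0.16 in R 4.3.3, with TMM factors, filterByExpr and Benjamini-Hochberg adjustment over all genes tested at a threshold of 0.05. CPM values in the text are scaled to library totals, whereas the tests use TMM factors. Poisson and Clopper-Pearson intervals came from scipy 1.17.1, and Scrublet in scanpy 1.11.5 marked 57 barcodes (1.46%) as doublets, which were kept. Tests were checked on simulated counts with 200 genes changed 4-fold. Recovered were 74.5% for macrophages between the Tumor 2 border and arrays (6040 genes) and 76% for neutrophils of Tumor 1 (6320 genes). Between macrophages and neutrophils 16.5% were recovered (5669 genes), and between Cx3cr1 Ms4a7 and alveolar macrophages 22.5% (6133 genes). Few changes of this size can thus be found between gates. Of the calls on these counts, 4.73%, 5.24%, 8.84% and 4.66% were false, in the same order, against a threshold of 0.05.

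The members, markers and gene lists were chosen with earlier results of these data known. Named are the 9 members, at most 5 called genes of the complement list per direction and comparison, and the 5 or 3 genes most like a member. Alternatives were 3 markers, 500 genes, doublets left out, DESeq2 1.42.0, RLE factors, no filter, a replicate block and each library left out; leaving out barcodes shared by libraries and scaling to library totals were added after the data were seen. Whole Tumor arrays with the same number did not deviate together (r from -0.028 to -0.011), so the numbers do not pair them. The study's own cell assignments and its imaging, flow cytometry and human samples were not analysed here. A few items of the design, markers and lists are not reported here, while the counts of genes include them.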

Additional observations from a re-analysis of the deposited data

Results flagged for a closer look

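The border effect in neutrophils differed between the tumors, by edgeR's interaction contrast, for C3 (-1.76 on the log2 scale, Tumor 2 minus Tumor 1, adjusted p = 0.00269) and C5ar1 (-2.59, adjusted p = 8.36e-05). The C3 difference was not called with library totals (-0.81, adjusted p = 0.119) or without barcodes of under 500 genes (adjusted p = 0.151). Each border is 1 library, and the neutrophil markers summed to 149 per 10000 UMIs at the Tumor 2 border against 286 to 307 in its arrays. C3 was higher at the border of Tumor 1 than in all 3 arrays, and C5ar1 was higher there and lower at the border of Tumor 2.

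In other genes the border lay on opposite sides of all arrays in the 2 tumors; these differences were not tested, and the same held for 24.6% of the 6040 genes tested in macrophages and 35.1% of the 6320 in neutrophils. In macrophages, C1qb stood at 51.8 CPM at the Tumor 1 border and 2336 CPM at the Tumor 2 border, C1qc at 103.6 and 1254 CPM, C3ar1 at 103.6 and 312.3 CPM, C4b at 0 and 286.6 CPM, Cfp at 0 and 467.9 CPM, and C3, in the other direction, at 1088 and 91.2 CPM. The Tumor 1 border values rest on 10 barcodes, in which 3 counts correspond to 155 CPM; the counting intervals of C1qb (1 UMI) and C1qc (2 UMIs) there reach the levels of the arrays, so these cannot be placed below them, while that of C3ar1 (2 UMIs) reaches 374 CPM. In the 10 macrophage barcodes of the Tumor 1 border, the neutrophil markers summed to 33.1 per 10000 UMIs. In macrophages of the other libraries they summed to 3.69 to 8.95, and their part in these values was not tested. In neutrophils, C1qa stood at 0 CPM at the Tumor 1 border and 18.2 CPM at the Tumor 2 border, on 17 UMIs over all libraries. The 0 UMIs at the Tumor 1 border allow up to 3.68 CPM by the exact interval. The interval of the 4 UMIs at the Tumor 2 border reaches down to 4.97 CPM, so that neither can be placed outside the arrays.

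The 449 barcodes with fewer than 200 genes, used in no comparison, held 4 UMIs of C1qa, 5 of C1qb, 17 of C3, 9 of C3ar1, 10 of C5ar1 and 4 of Cfp, above the limit of 3 counts.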

How the results depend on the processing

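Of 49 calls of a member, none changed direction under an alternative. The calls lost were 1 of 37 with 3 markers, 3 with 500 genes, 1 without doublets, 1 with RLE factors, 3 with library totals, 2 with no filter, 12 with DESeq2 (1 more had no adjusted p) and 0 without shared barcodes. The calls gained were of Cfp, between macrophages and neutrophils in 8 alternatives and for the difference of border effects in neutrophils with library totals. Leaving out 1 library lost 0 to 5, the most without the Tumor 2 border (5 of 40). With 3 markers the kinds could not be fitted. The replicate block, run for the Whole Tumor arrays, gave 1000 genes called (1256 without it) and changed none of the 6 member calls there. Library totals moved the median of all genes by over 0.1 in 6 of the 11 comparisons. The causes of these changes were not tested.

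With DESeq2 the genes called were 37 (148 by edgeR) for the Tumor 2 border in macrophages, 581 (1256) between Whole Tumor arrays, 338 (546) for the Tumor 1 border in neutrophils, and 67 (451), 16 (142) and 15 (287) for Cx3cr1 Ms4a7 against alveolar, Prg4 and monocyte barcodes; the members called between gates were 2 (5) for macrophages against neutrophils, 4 (7) for fibroblasts and 4 (7) for epithelial cells. With 500 genes, neutrophils gave 301 (546) genes and 1 (3) member in Tumor 1, 209 (495) genes in Tumor 2, and 276 (635) genes and 1 (2) member for the difference between tumors. Library totals gave 1021 (546) genes and 1 (3) member in Tumor 1 and 1257 (635) genes for that difference. Without the filter on low counts the counts were 253 (495) for neutrophils of Tumor 2, 375 (635) for the difference, 1102 (699) for fibroblasts, 1541 (890) for epithelial cells and 191 (287) against monocytes. Without doublets, 78 (142) genes differed from Prg4 and 136 (287) from monocyte barcodes.

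Leaving out 1 library at a time, the genes called were 85 (without array 3 of Tumor 2; 97 without array 2) to 189 for the Tumor 2 border in macrophages, 361 (without array 3 of Tumor 1) to 630 for neutrophils of Tumor 1, with 1 (without array 1 of Tumor 1) to 3 members, 293 (without array 3 of Tumor 2) to 528 for those of Tumor 2, and 712 to 1404 (without array 3 of Tumor 1) for epithelial cells. They were 190 to 412 against alveolar, 30 to 121 against Prg4 and 16 to 255 against monocyte barcodes, lowest without array 3 of Tumor 2, the Tumor 1 border and array 3 of Tumor 2; each of these counts also fell by over 1.5 times without the Tumor 1 border, the Tumor 2 border, array 2 or array 3 of Tumor 2, and the last without array 1 of Tumor 1 (147). Depth limits the Tumor 1 border macrophages, with 10 barcodes, and Cfb, with 40 UMIs.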
